A study of Mus musculus with 8 samples.

Results

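The interleukin-1 (IL-1) family ligands and receptors were described here through 10 genes: the ligands Il1a, Il1b, Il33 and Il18, the receptor chains Il1r1, Il1rap and Il1rl1, and the inhibitors Il1rn, Il1r2 and Il18bp. They were taken by gene symbol from the 33467 genes of the deposited expression table. Rows were selected on the symbol, and a duplicated symbol would have been settled by the row chosen by its highest mean count. None of the 10 symbols was duplicated, so no measured value decided a row, although the family itself was picked with earlier results of the same comparison known. The samples were livers of wild-type C57BL/6J mice. The DDC group had eaten 1% 3,5-diethoxycarbonyl-1,4-dihydrocollidine, a porphyrinogenic compound that injures bile ducts and leads to biliary fibrosis, for 4 weeks. The control group had eaten a standard diet for the same 4 weeks. Each group had 4 mice with 1 library each, all under the same batch label, and the labels used here give neither sex nor age. Whole liver RNA mixes hepatocytes with every other cell type, so more cells of a type and more RNA per cell cannot be told apart in any result below.

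IL-1α and IL-1β are alarm cytokines that bind the receptor IL1R1, which signals only after the accessory chain IL1RAP joins it. IL-1β and IL-18 are made as precursors that caspase-1 cleaves in myeloid cells, whereas IL-33 is a nuclear protein released from damaged cells that binds ST2, the product of Il1rl1, again together with IL1RAP. The family carries its own brakes: the receptor antagonist (Il1rn) occupies IL1R1 without signalling, the type 2 receptor (Il1r2) is a decoy that binds IL-1 without a signalling domain, and IL-18 binding protein (Il18bp) neutralises IL-18. In liver, macrophages and neutrophils are known sources of IL-1, and hepatocytes answer it by making acute phase proteins.

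The 4 promoters that follow show genes that moved in opposite directions: the agonists Il1a and Il1b and the antagonist Il1rn, which were higher in DDC livers, and the accessory chain Il1rap, which was lower. Each is the 250 bases before a RefSeq transcript start in GRCm38.p6, 5′ to 3′ on the gene's own strand, and for Il1rn it is the first of 3 listed starts. Capitals mark matches, on either strand, to a 10-base NF-kB pattern (3 G, 5 free bases, 2 C), the AP-1 pattern TGANTCA, the PU.1 core GAGGAA or the TATA box TATAAA.
Il1a, chr2:129309973-129310222, minus strand: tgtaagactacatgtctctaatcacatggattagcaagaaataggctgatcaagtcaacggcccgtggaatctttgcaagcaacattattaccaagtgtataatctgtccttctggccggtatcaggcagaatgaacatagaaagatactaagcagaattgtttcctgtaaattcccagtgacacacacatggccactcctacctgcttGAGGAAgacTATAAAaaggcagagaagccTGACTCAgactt
Il1b, chr2:129371140-129371389, minus strand: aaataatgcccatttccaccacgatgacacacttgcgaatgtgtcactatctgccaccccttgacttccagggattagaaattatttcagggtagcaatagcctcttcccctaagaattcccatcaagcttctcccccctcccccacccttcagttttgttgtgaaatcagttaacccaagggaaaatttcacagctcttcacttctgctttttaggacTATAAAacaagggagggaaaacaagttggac
Il1rn, chr2:24336610-24336859, plus strand: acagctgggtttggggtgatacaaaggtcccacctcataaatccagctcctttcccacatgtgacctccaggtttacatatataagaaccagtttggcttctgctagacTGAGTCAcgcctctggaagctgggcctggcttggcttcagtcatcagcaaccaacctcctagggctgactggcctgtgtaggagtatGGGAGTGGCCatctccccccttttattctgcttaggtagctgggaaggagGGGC
Il1rap, chr16:26581455-26581704, plus strand: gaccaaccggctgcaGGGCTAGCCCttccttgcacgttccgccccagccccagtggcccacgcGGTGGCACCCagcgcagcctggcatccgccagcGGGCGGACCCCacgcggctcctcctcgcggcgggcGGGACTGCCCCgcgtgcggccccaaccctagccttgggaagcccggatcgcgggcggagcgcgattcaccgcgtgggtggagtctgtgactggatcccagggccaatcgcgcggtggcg

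Both agonist promoters held a TATA box about 30 bases before the start, at position -32 in Il1a and -31 in Il1b counted back from the start. Il1a also held an AP-1 match at -12 and a PU.1 match at -41. The Il1rap promoter held no TATA box and was 74.4% G or C, against 42.4% in Il1a, 44.4% in Il1b, 53.2% in Il1rn and a median of 52.4% over all 32851 RefSeq promoter windows. It held 6 NF-kB matches, some overlapping, whereas the Il1a and Il1b windows held none of this pattern. The last Il1rn match runs across the transcript start and is printed in part. Across the 300-base windows (250 before and 50 after the start) of all promoters, 50.8% held the NF-kB pattern, 7.81% the AP-1 pattern, 28.3% the PU.1 core and 13.6% the TATA box. All 10 members had an entry, with 15 windows in all, of which 5 held the NF-kB pattern, 2 the AP-1 pattern, 3 the PU.1 core and 6 the TATA box. These matches describe letters only, and the TATA box was added to the search after the sequences had been seen.

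Some libraries stood apart from others of their group. A chi-square of the counts over all genes, divided by its degrees of freedom, was 81.8 to 90.05 between DDC liver 1 and the other DDC livers and 14.8 to 20.8 among those others. Control livers 1 and 3 were close to each other, at 12.75, and lay at 148 to 201 from control livers 2 and 4, which were at 57.4 from each other. Without DDC liver 1, without controls 1 and 3 or without controls 2 and 4, 6 members were called higher and 2 lower each time. The control pairs were chosen after the data had been seen.

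DDC livers carried more transcript for the IL-1 agonists, for IL-33 and for the 3 inhibitors among the 10 members, and less for the signalling chain shared by the IL-1 and IL-33 receptors. Il1b was higher 6.48-fold, Il1a 5.51-fold and Il33 3.91-fold, while Il1r2 was higher 18.8-fold, Il18bp 5.00-fold and Il1rn 3.83-fold. Il1rap was 6.11-fold lower. Of the 10 members 9 had enough counts to be tested, and 6 of them rose and 2 fell (edgeR quasi-likelihood test on counts, Benjamini-Hochberg adjusted p under 0.05 over all 19535 genes tested). Changes were common in these livers: 30.2% of all tested genes were called higher and 26.6% lower, 56.8% in all. The groups did not overlap for 8 of the 9 tested members, against 52.6% of all tested genes. DDC was above in 6 of these members (26.9% of all tested genes) and below in 2 (25.7%). The median log2 fold change was 2.22 over the 4 ligands, 2.32 over the 3 inhibitors and -1.72 over the 2 tested receptor chains, beside 0.073 over all tested genes. Il1r2 had 8 to 22 counts in each control library and passed the count filter mainly through the DDC libraries. These counts are a description and carry no test of the family as a whole.

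Values for single libraries are given as CPM, the standard unit of counts scaled to a common library total, with totals adjusted by TMM (trimmed mean of M values).

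**Figure D1:**
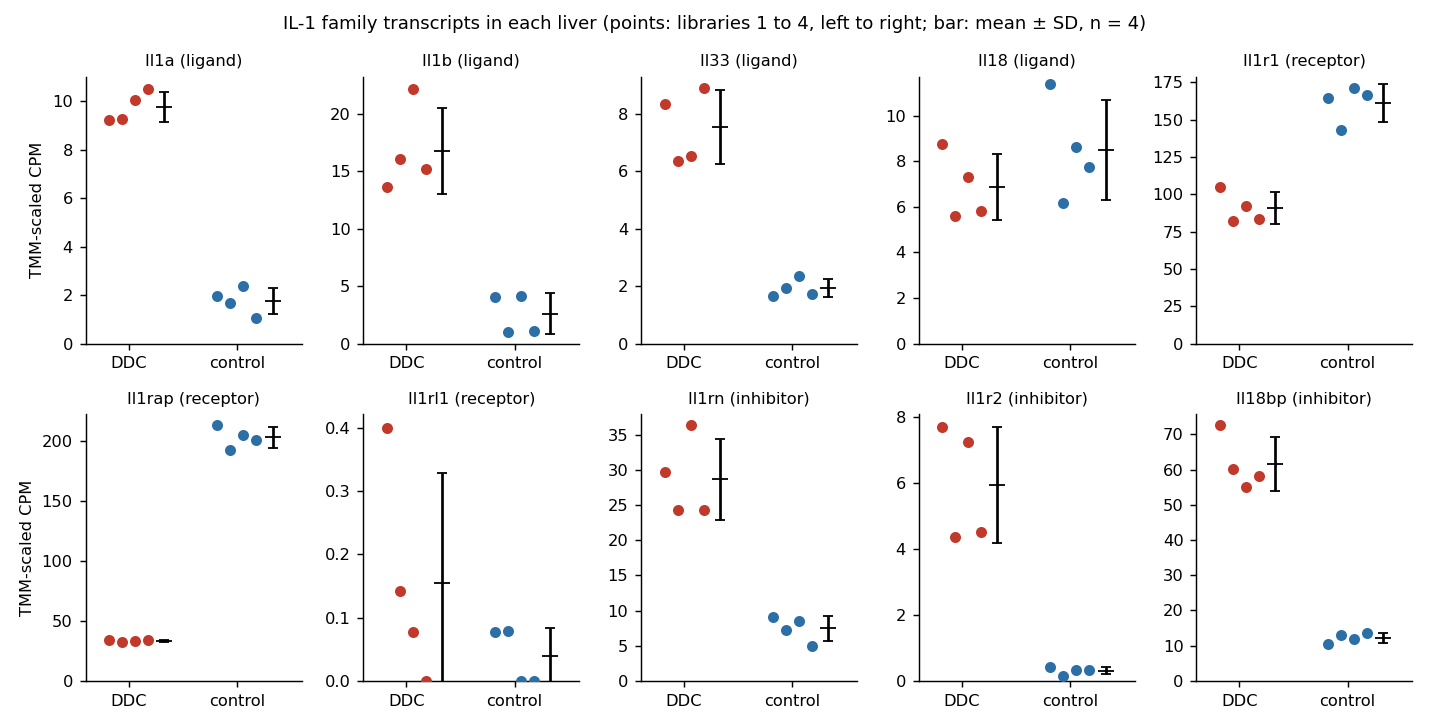
Each panel plots 1 gene, with TMM-scaled CPM (linear axis from 0) for the 4 DDC libraries in red and the 4 control libraries in blue; bars are mean ± SD, n = 4, and the SD of Il1rl1 reaches below 0 and is cut there. The groups do not overlap for Il1a, Il1b, Il33, Il1r1, Il1rap, Il1rn, Il1r2 and Il18bp, and they overlap for Il18 and Il1rl1.

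Il1b (ENSMUSG00000027398, chromosome 2, 129364570 to 129371139 in GRCm38), the secreted agonist, had 13.6, 16.1, 22.1 and 15.2 CPM in DDC livers 1 to 4, against 4.075, 1.02, 4.17 and 1.05 CPM in control livers 1 to 4. Every DDC library was above every control library, and among the controls livers 1 and 3 stood near 4 CPM and livers 2 and 4 near 1 CPM. The log2 fold change was 2.70 (SE 0.50, edgeR adjusted p = 0.00209). Because of the split among controls its size depended on which were used: it was 4.01 without controls 1 and 3 (adjusted p = 2.58e-05) and 2.01 without controls 2 and 4 (adjusted p = 0.000141), omissions chosen after the data had been seen.

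Il1a (ENSMUSG00000027399, chromosome 2, 129299610 to 129309972), the membrane-bound or cell-associated agonist encoded beside Il1b, had 9.25, 9.27, 10.05 and 10.5 CPM in DDC livers and 1.96, 1.685, 2.36 and 1.07 CPM in control livers. The DDC libraries lay close together and far above the controls, with a log2 fold change of 2.46 (SE 0.22, edgeR adjusted p = 1.12e-05). The noncoding genes Gm14023 and Il1bos lie on the opposite strand over parts of Il1a and Il1b. They held 182 and 84 counts in the DDC libraries together, against 3510 for Il1a and 6098 for Il1b. The sources do not state how strand was handled in counting, so reads in such overlaps cannot be told apart here or for the antisense genes named below.

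Il33 (ENSMUSG00000024810, chromosome 19, 29925114 to 29960718), the nuclear alarmin, had 8.32, 6.36, 6.51 and 8.90 CPM in DDC livers, against 1.67, 1.94, 2.36 and 1.71 CPM in control livers. The lowest DDC library was above the highest control library, and the log2 fold change was 1.97 (SE 0.18, edgeR adjusted p = 1.48e-05). Cell types known to hold IL-33 in liver include stellate cells, endothelium and mesothelium, and several of their markers were also higher in DDC livers. Of 8 stellate cell or fibroblast markers 5 rose (Pdgfrb, Pdgfra, Dcn, Col1a1 and Thy1). Lrat, Reln and Des did not pass, at log2 fold changes of 0.34, 0.16 and -1.27 (edgeR adjusted p = 0.0675, 0.389 and 0.0959). Summed, the list had 622.5 to 698.6 CPM in DDC livers and 278.3 to 361.4 CPM in control livers. Dcn alone averaged 311 CPM in DDC livers and 168 CPM in control livers. Of 5 sinusoidal endothelial markers 3 rose (summed 117.6 to 139.2 CPM in DDC livers and 89.5 to 101.6 CPM in control livers), as did 3 of 5 vascular endothelial markers (121.1 to 152.9 CPM in DDC livers and 82.1 to 97.6 CPM in control livers). Of 4 mesothelial markers 2 rose, with sums of 20.05 to 28.1 CPM in DDC livers and 6.21 to 8.58 CPM in control livers. No marker of these 4 lists was at 0 in all libraries of a group, though Upk3b, a mesothelial marker, was at 0 in control liver 3, and their part in the Il33 result was not tested.

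Il18 (ENSMUSG00000039217, chromosome 9, 50554827 to 50581840), the inflammasome-processed ligand, had 8.74, 5.599, 7.29 and 5.83 CPM in DDC livers and 11.4, 6.15, 8.62 and 7.74 CPM in control livers. The groups overlapped, and the log2 fold change of -0.30 (SE 0.21) did not pass (edgeR adjusted p = 0.239). With library totals alone in place of TMM its sign turned, to 0.32 (adjusted p = 0.204). Bco2, a carotenoid oxygenase gene on the opposite strand, overlaps the start of Il18 and fell, with a log2 fold change of -1.27 (SE 0.12, adjusted p = 1.21e-05), and Tex12 lies inside Il18, again on the opposite strand, with 58 counts in all DDC libraries.

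Il1rap (ENSMUSG00000022514, chromosome 16, 26581704 to 26730117), the accessory chain that IL1R1 and ST2 need to signal, had 33.9, 32.1, 32.96 and 33.8 CPM in DDC livers, against 213, 192, 205 and 201 CPM in control livers. It was the tightest member within groups, at 33.2 ± 0.864 CPM in DDC livers and 203 ± 8.63 CPM in control livers (SD, n = 4 each). The log2 fold change was -2.61 (SE 0.06, edgeR adjusted p = 1.77e-08), and it was -1.99 with library totals alone (adjusted p = 1.63e-08). The counts do not separate transcripts that encode the membrane form from those of the soluble form. The antisense gene Gm20319 overlaps Il1rap and fell too, with a log2 fold change of -1.36 (SE 0.07, adjusted p = 4.02e-07) and 5115 counts in the DDC libraries together, against 11864 for Il1rap.

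Il1r1 (ENSMUSG00000026072, chromosome 1, 40225080 to 40317257), the signalling receptor for IL-1, had 105, 82.04, 92.1 and 83.6 CPM in DDC livers and 165, 143, 171 and 167 CPM in control livers. The groups did not overlap, and Il1r1 fell by 0.83 on the log2 scale (SE 0.09, edgeR adjusted p = 4.84e-05). This call rested on scaling. With library totals alone the log2 fold change was -0.21 (adjusted p = 0.0679), because that scaling moved the median of all tested genes to 0.696, against 0.073 with TMM. Relative to the median gene, Il1r1 stood at -0.90 under both scalings. A change of scaling shifts all genes by nearly the same amount, so this equality was fixed in advance and does not bear on the call. The deposited FPKM of Il1r1 (fragments scaled by gene length and by library size) was 17.0 ± 1.96 in DDC livers and 19.7 ± 1.42 in control livers (SD, n = 4 each).

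Hepatocyte transcripts moved in the same direction as these receptor chains. All 6 hepatocyte markers (Alb, Apoa1, Ttr, Cps1, Serpina1c and Asgr1) fell, with a median log2 fold change of -1.11 and a summed level of 55410 to 70150 CPM in DDC livers and 127200 to 153900 CPM in control livers. Il1rap at -2.61 was below each of those 6 genes, of which Serpina1c changed most, at -1.90, and Il1r1 at -0.83 lay within their range. These are values with TMM. With library totals alone 5 of the 6 fell, with a median of -0.49, and Cps1 did not pass (-0.09, edgeR adjusted p = 0.359). No hepatocyte marker was at 0 in any library, and the part of hepatocyte content in either result was not tested.

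Il1rl1 (ENSMUSG00000026069, chromosome 1, 40429570 to 40448148), which encodes the IL-33 receptor ST2, was at the limit of detection. It had 31, 12, 8 and 0 counts in DDC livers 1 to 4, against 4, 4, 0 and 0 counts in control livers 1 to 4, in libraries of 61179103 to 81664058 counts. The groups overlapped, and 31 of the 51 DDC counts came from DDC liver 1. The gene did not pass the count filter. Tested without a filter, it had a log2 fold change of 1.97 and did not pass (edgeR adjusted p = 0.319). ST2 is known from type 2 lymphoid cells, regulatory T cells and mast cells, several of whose markers were also near 0. Mast cell and basophil markers had 5 of 7 in the table and only Kit tested, which rose by 0.74 on the log2 scale (SE 0.20, adjusted p = 0.0116) and which other cells also express. The mast cell receptor chain Ms4a2 had 0 counts in DDC livers and 4 in control livers. Summed, that list had 7.72 to 11.01 CPM in DDC livers and 4.04 to 7.08 CPM in control livers. Of 7 T cell or regulatory T cell markers only Cd3e rose, and the list summed to 4.05 to 5.35 CPM in DDC livers and 2.06 to 4.00 CPM in control livers. Of 4 tested type 2 lymphoid markers Il7r rose, Rora, which hepatocytes also express, fell, and Gata3 and Areg did not pass. That list summed to 48.1 to 52.9 CPM in DDC livers and 112 to 116.4 CPM in control livers, nearly all of it Rora, and Il5 was at 0 in control livers. Their part in the Il1rl1 counts was not tested.

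Il1r2 (ENSMUSG00000026073, chromosome 1, 40074079 to 40125231), the decoy receptor, showed the largest fold of the 9 tested members. It had 7.69, 4.37, 7.24 and 4.51 CPM in DDC livers, against 0.427, 0.157, 0.342 and 0.330 CPM in control livers. Its log2 fold change was 4.24 (SE 0.35, edgeR adjusted p = 6.61e-06). The short gene Gm37347, inside Il1r2 on the same strand, held 98 counts in DDC libraries and 0 in control libraries. Of all tested genes 8.15% were called higher by at least 4-fold, and Il1a, Il1b, Il1r2 and Il18bp were among them.

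Il1rn (ENSMUSG00000026981, chromosome 2, 24336853 to 24351494), the receptor antagonist, had 29.65, 24.3, 36.3 and 24.3 CPM in DDC livers, against 9.06, 7.25, 8.58 and 5.02 CPM in control livers. The groups were apart, with a log2 fold change of 1.94 (SE 0.20, edgeR adjusted p = 3.22e-05). Il18bp (ENSMUSG00000070427, chromosome 7, 102014885 to 102018197), the soluble inhibitor of IL-18, had 72.55, 60.2, 54.9 and 58.2 CPM in DDC livers, against 10.6, 13.15, 11.8 and 13.6 CPM in control livers. Its log2 fold change was 2.32 (SE 0.11, edgeR adjusted p = 2.23e-07). The 3' end of the abundant gene Numa1 overlaps Il18bp on the opposite strand, and Numa1 fell by 0.31 on the log2 scale (SE 0.07, adjusted p = 0.00532).

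Within the DDC group, livers 1 and 3 were the higher ones for Il1r2, Il1rn, Il18 and Il1r1, but not for the other members. Il1b was lowest in liver 1, Il33 was highest in liver 4 and Il18bp was lowest in liver 3. Livers 1 and 3 had the higher summed levels of 6 cholangiocyte markers, at 918.6 and 1092 CPM, whereas livers 2 and 4 had 707.3 and 733.2 CPM. In DDC livers most of the sum of this list was Spp1, which averaged 728 CPM. None of its other markers averaged above 35.5 CPM there, so the sums mainly describe Spp1. Control livers had 75.85, 143.9, 69.7 and 67.2 CPM of that list, of which 5 of 6 members rose and none was at 0 in any library. The neutrophil markers differed among themselves. Csf3r, the G-CSF receptor gene, had 50.5, 32.1, 43.8 and 33.2 CPM in DDC livers 1 to 4 and Cxcr2, a chemokine receptor gene, 12.7, 8.10, 11.8 and 8.99 CPM, both again higher in livers 1 and 3. S100a9, a calcium-binding protein gene of myeloid cells, had 18.9, 49.1, 44.5 and 40.4 CPM and was lowest in liver 1. The whole neutrophil list summed to 96.4, 122.2, 134.3 and 114.9 CPM in DDC livers 1 to 4, so its sum was also lowest in liver 1. These are values of 4 livers, and no relation between them was tested.

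Markers of the myeloid cells that make IL-1 rose with the agonists and inhibitors. All 8 monocyte or macrophage markers rose, among them Itgam, an adhesion receptor chain of myeloid cells, and their summed level was 1092 to 1180 CPM in DDC livers and 133.8 to 171.8 CPM in control livers. All 5 Kupffer cell markers rose, to 820 to 1185 CPM in DDC livers, against 214 to 299.5 CPM in control livers. Of 7 neutrophil markers 6 rose and Ly6g did not pass, with sums of 96.4 to 134 CPM in DDC livers and 26.3 to 33.8 CPM in control livers. Among these lists the only 0 in a library was Ly6g in DDC liver 1. The medians of the lists were 3.25, 2.26 and 1.71 on the log2 scale for macrophage, Kupffer cell and neutrophil markers, beside 2.46 for Il1a, 2.70 for Il1b, 1.94 for Il1rn and 4.24 for Il1r2. The part of cell number in these results was not tested.

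**Figure D2:**
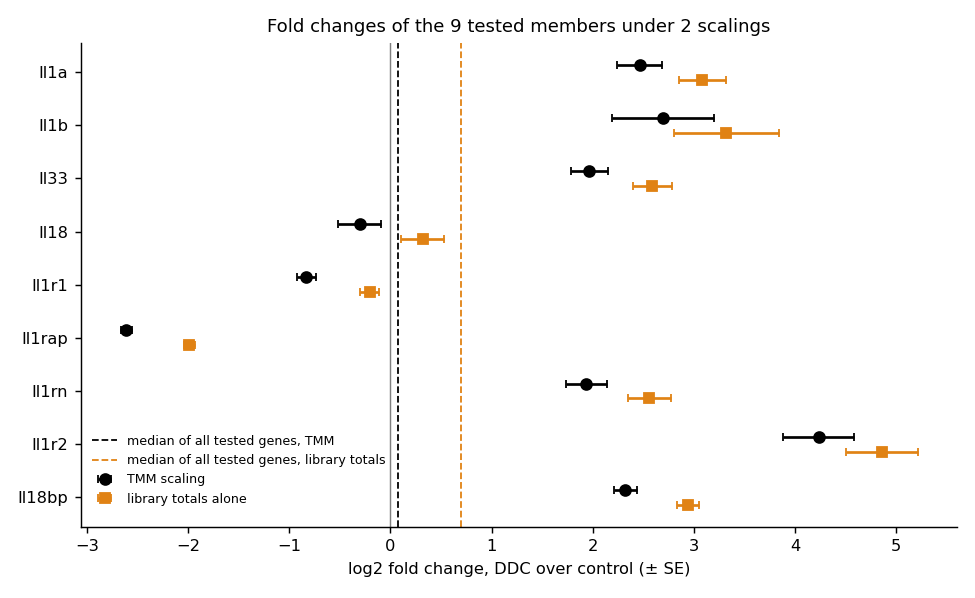
Log2 fold changes (DDC over control, ± SE) of the 9 tested members with TMM scaling (black circles) and with library totals alone (orange squares); dashed lines mark the median of all tested genes under each. Library totals move every member to the right by about the shift of the median, the 6 risen members stay above 0, Il18 changes sign and Il1r1 comes close to 0.

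FPKM divides by gene length, so levels of different members can be compared within a liver as far as the lengths used hold. In DDC livers the order ran from Il18bp, at 24.2 ± 2.72 FPKM, through Il1r1 at 17.0 ± 1.96, Il1b at 10.5 ± 2.51, Il18 at 7.93 ± 1.66, Il1rn at 6.18 ± 1.32 and Il1a at 5.92 ± 0.5, to Il1r2 at 3.72 ± 1.11, Il1rap at 3.49 ± 0.140, Il33 at 3.11 ± 0.553 and Il1rl1 at 0.0256 ± 0.0288 FPKM (SD, n = 4). Neighbours from Il1b to Il1a overlapped in their library ranges, as did those from Il1r2 to Il33. In control livers the order began with Il1r1 at 19.7 ± 1.42 FPKM, Il1rap at 13.9 ± 0.569, Il18 at 6.37 ± 1.64 and Il18bp at 3.15 ± 0.345, none of which overlapped its neighbour. Il1rn and Il1b followed at 1.05 ± 0.262 and 1.05 ± 0.730 FPKM, then Il1a at 0.695 ± 0.218 and Il33 at 0.510 ± 0.0909, with overlapping neighbours from Il1rn to Il33. Il1r2 at 0.126 ± 0.0446 and Il1rl1 at 0.0044 ± 0.0051 FPKM came last (SD, n = 4). The inhibitor Il18bp was thus the most abundant member per length in DDC livers and the fourth in control livers, and Il1rap was eighth in DDC livers and second in control livers.

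Ratios between an inhibitor or receptor and its partner were compared within each library, which removes library scaling. The decoy Il1r2 stood at 0.244, 0.178, 0.262 and 0.180 of the Il1r1 level per length in DDC livers 1 to 4, against 0.00897, 0.0042, 0.00712 and 0.00697 in control livers 1 to 4. The groups were fully apart, with a difference of 5.01 in mean log2 ratio. Il18bp over Il18 was 2.84, 3.67, 2.57 and 3.40 in DDC livers and 0.317, 0.730, 0.469 and 0.600 in control livers. Every DDC liver thus held more Il18bp than Il18 per length and every control liver less, a difference of 2.61 in mean log2 ratio. In counts, not divided by length, control livers 1 to 4 had 544, 671, 621 and 659 for Il18bp, against 587, 314, 453 and 375 for Il18. Which gene was higher in controls thus depended on the lengths used, whereas the difference between groups was 2.61 on counts plus 0.5 too. For both ratios an exact two-sided permutation test gave p = 0.0286, the smallest that 4 livers against 4 allow, and 0.0714 after Benjamini-Hochberg adjustment over the 5 ratios compared, which misses the threshold of 0.05. With a pseudocount of 0.1 in place of 0.01 FPKM both reached an adjusted p of 0.0476. Their own p could not fall further. The adjusted value fell only because Il1rl1 over Il33 then also reached the smallest p, although Il1rl1 lay below that pseudocount in every library.

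The antagonist Il1rn over Il1b was 0.752, 0.520, 0.566 and 0.552 in DDC livers, against 0.768, 2.44, 0.712 and 1.63 in control livers. In counts, not divided by length, Il1rn was above Il1b in every library, so ratios under 1 rested on the lengths used. Control livers 1 and 3, the ones with more Il1b, fell close to the DDC livers, and the difference of -1.04 in mean log2 ratio did not pass (exact permutation p = 0.0571, adjusted p = 0.0952, n = 4 each). Il1b over Il1a was 1.52, 1.79, 2.28 and 1.49 in DDC livers and 2.15, 0.623, 1.82 and 1.02 in control livers, with overlapping groups (exact permutation p = 0.343, adjusted p = 0.343). The receptor Il1rl1 was under 0.05 of the Il33 level in every liver of both groups. Its ratio was lower in DDC livers by 1.57 on the log2 scale, without passing (exact permutation p = 0.0857, adjusted p = 0.107), and it rests on counts at or near 0.

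**Figure D3:**
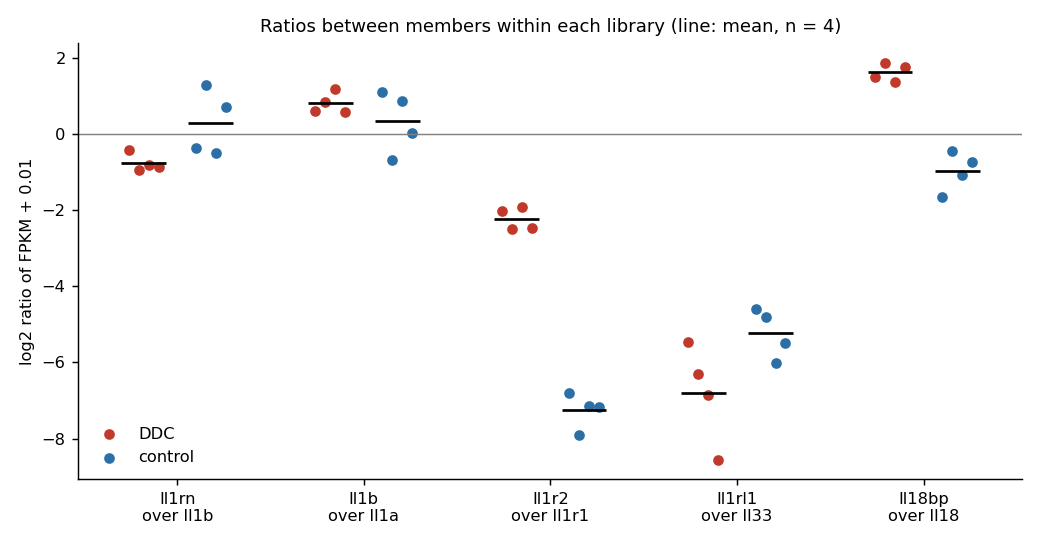
Log2 ratios of FPKM + 0.01 between members within each library, with DDC libraries in red left of control libraries in blue and a line at the mean of 4. DDC and control libraries are fully apart for Il1r2 over Il1r1 and for Il18bp over Il18 and overlap for the other 3 ratios.

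Several members are neighbours in the genome. On chromosome 1 the genes Il1r2, Il1r1, Il1rl2, Il1rl1, Il18r1 and Il18rap follow one another on the plus strand between 40074079 and 40551705, and the tested ones did not move together. Il1rl2, which encodes the receptor for IL-36 cytokines, rose 9.34-fold (log2 fold change 3.22, SE 0.27, edgeR adjusted p = 6.21e-06), to 4.65 ± 1.00 CPM in DDC livers, against 0.496 ± 0.116 CPM in control livers (SD, n = 4 each). The chains of the IL-18 receptor rose as well: Il18rap 3.12-fold (adjusted p = 0.00172) and Il18r1 2.49-fold (adjusted p = 0.0194). Between these risen genes Il1r1 fell with TMM, as given above, and the short gene Gm38070, inside Il1r1 on the same strand, had 8 counts in DDC libraries and 56 in control libraries. On chromosome 2, Il1a and Il1b lie next to each other and both rose. Ckap2l, on the other side of Il1a, rose as well (log2 fold change 2.47, SE 0.28, edgeR adjusted p = 5.05e-05). Chchd5, farther along that side, fell (-0.455, SE 0.16, adjusted p = 0.0366).

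**Figure D4:**
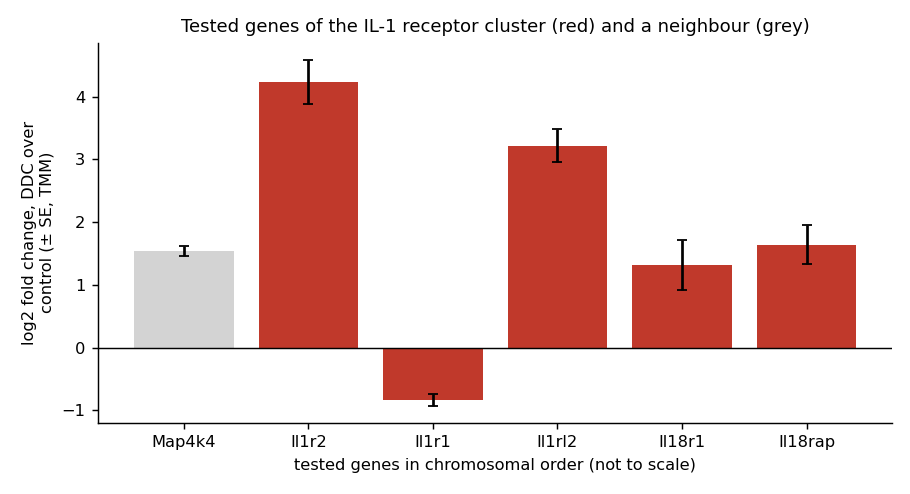
Log2 fold changes (DDC over control, TMM, ± SE) of the tested genes of the IL-1 receptor cluster in chromosomal order (red) and of the neighbour Map4k4 (grey). Slc9a4, a tested neighbour beyond Il18rap, is not drawn (log2 fold change -2.03, SE 1.75, edgeR adjusted p = 0.351). Il1r2 at 4.24 and Il1rl2 at 3.22 flank Il1r1 at -0.83.

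Of the other IL-1 family ligands and receptors listed, 7 were found in the table under the symbols searched, some of which are synonyms of one another, and 5 were tested. Of these 4 rose (Il1rl2, Il18rap, Il18r1 and the IL-36γ gene Il1f9) and Sigirr, an inhibitory receptor, did not pass. Il1f9 averaged 0.864 CPM in DDC livers and 0.388 CPM in control livers, and its call ended without DDC liver 2 (adjusted p = 0.128). Il1f6, the IL-36α gene, had 51 counts in DDC libraries and 0 in control libraries and was not tested.

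Among 18 genes of receptor-proximal signalling, the adaptors and kinases that carry the signal to NF-kB, 5 rose and 8 fell, with a median log2 fold change of -0.18, beside 30.2% of all tested genes higher and 26.6% lower. The balance followed the scaling, as it did over all genes: with library totals alone 13 of the 18 rose and 2 fell, beside 58.9% of all tested genes higher and 8.96% lower. Irak3, a pseudokinase that restrains IL-1 and Toll-like receptor signals and is made by macrophages, rose 5.23-fold (adjusted p = 4.84e-05). The NF-kB subunit Nfkb1 rose 1.89-fold and the kinase partner Tab1 2.41-fold. Peli2, a ubiquitin ligase of the IRAK complex, fell by 1.20 on the log2 scale and was also lower with library totals alone (-0.57, adjusted p = 0.000216). The adaptor Myd88, at 25.8 ± 1.08 CPM in DDC livers and 29.1 ± 2.81 CPM in control livers (SD, n = 4 each), did not pass with TMM. Leaving out 1 library at a time gave 4 to 5 rises and 4 to 10 falls on this list.

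Of 9 tested proteases and effectors that process or release IL-1 family cytokines 6 rose and none fell, with a median of 0.66, beside the same 30.2% higher and 26.6% lower over all tested genes. Of the 6, the initiator caspase gene Casp8 had a log2 fold change of 0.17 (edgeR adjusted p = 0.0477), and its call ended with DESeq2 size factors (adjusted p = 0.0546) and without DDC liver 2 (adjusted p = 0.127). Casp4, which senses cytosolic lipopolysaccharide, rose 3.22-fold and Casp1, the IL-1β and IL-18 convertase, rose 3.08-fold to 9.60 ± 1.08 CPM in DDC livers, against 3.12 ± 0.324 CPM in control livers (SD, n = 4 each). The calpains Capn2 and Capn1, of which calpain activity matures IL-1α, rose 1.92-fold and 1.66-fold. The neutrophil proteases Elane, Prtn3 and Ctsg did not pass, with means of 1.24, 3.36 and 0.432 CPM in DDC livers and 2.72, 3.76 and 0.940 CPM in control livers.

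Of 16 tested genes that IL-1 is known to induce 9 rose and 3 fell, with a median of 1.34, beside 30.2% higher and 26.6% lower over all tested genes. With library totals alone 12 rose and 1, Saa1, fell, beside 58.9% higher and 8.96% lower over all genes. The neutrophil chemokine genes Cxcl2 and Cxcl5 rose 18.2-fold and 12.6-fold, and Lcn2, an iron-sequestering acute phase protein, rose 10.1-fold. Cxcl1, also a neutrophil chemokine gene, did not pass with TMM (log2 fold change -0.28, edgeR adjusted p = 0.538), nor did Nfkbia, Nfkbiz and Ptgs2. Cxcl2 had 75 counts in the control libraries together and passed the count filter mainly through the DDC libraries, as did Ccl20 with 58. Ccl20 rose 7.69-fold, a call that ended without DDC liver 3 (adjusted p = 0.0692) and whose log2 fold change ran from 2.52 to 4.76 when single libraries were left out. The hepatocyte acute phase gene Saa1 moved the other way and fell by 2.03 on the log2 scale (adjusted p = 0.00382). Saa1 averaged 29.0 ± 10.3 CPM in DDC livers and 119 ± 63.4 CPM in control livers (SD, n = 4 each). Its close copies Saa2 and Saa3 fell by 1.45 and 0.66, where the call of Saa3 ended without control liver 1 (adjusted p = 0.0646) and both calls ended with library totals alone (log2 fold changes -0.82 and -0.04, adjusted p = 0.0653 and 0.893), and since these genes share sequence their counts are uncertain. Il6 had 99 counts in DDC libraries and 0 in control libraries and was not tested. All of these genes also answer other cytokines.

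**Figure D5:**
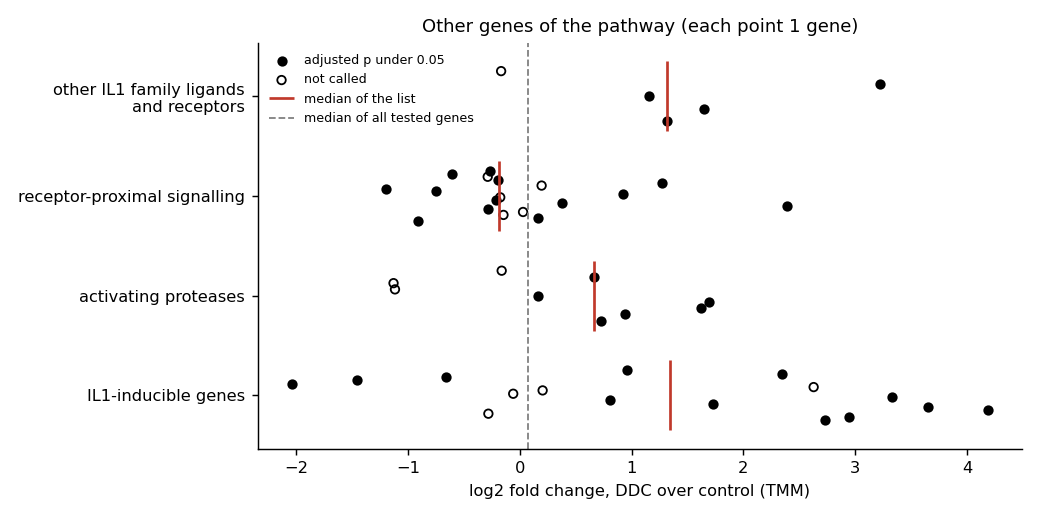
Log2 fold changes (DDC over control, TMM) of the tested genes in 4 lists of the pathway, 1 point a gene; filled points have an edgeR adjusted p under 0.05, red lines mark each list's median and the dashed line the median of all tested genes, 0.073. List medians are 1.32, -0.18, 0.66 and 1.34 from top to bottom.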

How the data were processed

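Polyadenylated RNA from 8 livers was sequenced as dUTP paired-end libraries, per the labels' protocols. The authors deposited whole-number counts per gene, not normalized, and FPKM values that they scaled by length and depth. HISAT2, StringTie, DESeq2, cutadapt and FastQC are named, with GRCm38, per the submitters' processing notes. Libraries held 63312756 to 81664058 counts in DDC and 61179103 to 64768950 in control livers, so precision for abundant genes is set by the spread between mice. Counts were tested with edgeR 4.0.16 (R 4.3.3; TMM, filterByExpr, robust quasi-likelihood, two-sided, no covariate), with Benjamini-Hochberg adjustment over 19535 genes. TMM factors were 1.21 to 1.27 in DDC and 0.792 to 0.815 in control livers. The standard error is the log2 fold change over the root of F. Ratios used log2(FPKM + 0.01) and exact permutation over 70 assignments. Alternatives were other scalings and filters, DESeq2 1.42.0, limma 3.58.1 on log2(FPKM + 0.1) and log2(FPKM + 1), a replicate block, and omitted libraries. The test was checked on simulated counts with few genes changed, as many up as down, which does not check the scaling in these livers. No library repeated another of its group within sampling noise. Beside the 10 members, up to 4 called genes of each pathway list at 1 CPM or more were named by size of change, plus the largest call against its list's majority. Genes named outside this rule were chosen after their values were seen. Members and lists were chosen with earlier results of these data known. Promoter sequences are RefSeq's, GRCm38.p6.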

Additional observations from a re-analysis of the deposited data

How the results depend on the processing

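Across other scalings, filters, tools, the replicate block and omitted libraries, 6 members were called higher each time. The 2 falls were 1 with library totals alone and with limma on log2(FPKM + 0.1) and on log2(FPKM + 1), where Il1r1 had log2 fold changes of -0.21, -0.22 and -0.20 (adjusted p = 0.0679, 0.0614 and 0.062). Under the same alternatives Il18 turned to 0.32, 0.32 and 0.28, still not called. All genes called higher numbered 11505, 11976 and 11987 there, against 5893, and those called lower 1750, 1826 and 1815, against 5205. Library totals alone carry no correction for composition, and none was added to the FPKM values, which were scaled by length and depth. These alternatives are therefore not independent checks of one another, and for the FPKM fits the cause was not tested. The replicate numbers did not pair the livers (correlations of deviations -0.215 to 0.029), and the replicate block gave 4810 genes higher and 4654 lower. It changed no call of a member, and for ratios it cannot give p under 0.125. With a pseudocount of 0.1 FPKM the differences for Il1r2 over Il1r1, Il1rl1 over Il33 and Il18bp over Il18 were 4.27, -2.15 and 2.58. Each of them passed (exact permutation adjusted p = 0.0476). Il1rl1 reached at most 0.0666 FPKM in any library, so its ratio there was set mostly by Il33 and the pseudocount. On counts plus 0.5 the difference for Il1rl1 over Il33 was -0.675 and did not pass (exact permutation adjusted p = 0.771). Leaving out 1 library gave differences of 4.80 to 5.16 for Il1r2 over Il1r1, 2.39 to 2.79 for Il18bp over Il18, -2.015 to -0.99 for Il1rl1 over Il33 and -1.30 to -0.70 for Il1rn over Il1b. Each of these 4 passed without DDC 1 or without control 3, or both (adjusted p = 0.0476), since 3 ratios then reached the smallest p. Il1rl1 was tested only without a filter, by DESeq2 and without pairs of controls, at log2 fold changes of 1.97, 2.01, 1.91 and 1.94, none called (adjusted p = 0.319 to 0.433).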
